A study of Mus musculus with 18 samples.

Results

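The Polycomb core genes examined here are 10 genes that encode the central subunits of Polycomb repressive complexes 1 and 2. They were chosen by name from the known composition of these complexes, and all 10 were found among the 28374 genes matched between the count tables of the 2 parental alleles. Ezh1, Ezh2, Eed, Suz12, Rbbp4 and Rbbp7 make up the 6 genes of complex 2 (PRC2), and Rnf2, Ring1, Bmi1 and Pcgf5 the 4 genes of complex 1 (PRC1). Rbbp7 is the 1 X-linked member, and the other 9 are autosomal.

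As background, PRC2 places methyl groups on lysine 27 of histone H3. EZH1 and EZH2 are its alternative catalytic subunits, SUZ12 is the scaffold, EED binds the methylated product and stimulates the enzyme, and RBBP4 and RBBP7 are closely related histone-binding proteins that also serve other chromatin complexes. PRC1 attaches ubiquitin to histone H2A through the ligases RNF2 (also called RING1B) or RING1, each paired with 1 PCGF protein such as BMI1 or PCGF5. Both marks can build up on the inactive X chromosome of female cells, where Xist RNA can bring in PRC1 that holds PCGF5 or its relative PCGF3. This differs between cell types and states, and neither mark was measured in the naive or CpG samples here. In B cells, EZH2 is known to be low at rest and high in dividing germinal centre cells, while EZH1 is the form typical of resting cells.

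The samples were splenic CD23+ B cells of female F1 129S1/Cast mice, genotype Xist+/-, in which the labels give the Cast X chromosome as the inactive one in every cell. Of the 18 samples of the series, 6 are used here: 3 naive samples without treatment and 3 samples treated in vitro with 1 µM CpG for 24 h. CpG stands for a short synthetic DNA that a Toll-like receptor of B cells recognises. Both groups share the cross and the Xist genotype, so no sample with 2 intact Xist copies enters. The labels give neither the age of the mice, nor whether a sample is 1 animal or a pool, nor whether naive cells were cultured. The p-values therefore measure the spread between these samples, which may be partly technical. The comparisons ask how the Polycomb genes responded to stimulation on each allele, and how much of Rbbp7 came from the inactive X chromosome.

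Reads were assigned to the 129 or the Cast allele by the authors and counted per gene in separate tables, with 1987266 to 2928236 gene reads per sample in the 129 tables and 2465073 to 3321753 in the Cast tables. Xist, the RNA of the inactive X chromosome, had a Cast share of 86.4% to 88.9% over the 6 samples. Between 586 and 922 Xist reads per sample were assigned to 129, and since the labels do not give the deleted part of Xist these reads do not check the genotype. The B cell genes were present in both groups. Summed over both alleles, 8 of 9 tested members of that list were lower with CpG, where 34.4% of all 10343 tested genes were. Among them was Fcer2a, which encodes CD23 itself (517 ± 185 and 20.6 ± 2.29 CPM, SD, n = 3). Macrophage marker genes also moved with the groups: 15 of 15 tested members fell, where 34.4% of all genes did. The summed level of the list was 3849 to 8083 CPM per naive sample and 28.6 to 40.9 CPM with CpG, and Fcna was at 0 in all 3 CpG samples. Members at or near 0 with CpG, such as Fcna and C1qb, entered the test through their naive level and could only be called lower. Red cell and granulocyte markers summed to 69.4 to 117 and 3.18 to 5.06 CPM, and T cell markers to 63.6 to 73.8 and 6.37 to 7.40 CPM. Cd4 was the largest part of the naive T cell sum (37.0 ± 12.2 CPM), while Cd3d and Cd3e were at 3.64 ± 0.698 and 1.67 ± 0.886 CPM (SD, n = 3). Proliferation genes moved the other way, with 9 of 9 tested members (12 listed) higher, where 34.2% of all genes were. Their sum was 601 to 853 CPM in naive and 10533 to 12915 CPM in CpG samples. These values stand beside every change with CpG below, and their part in those changes was not tested. In such bulk samples fewer cells of a type and less RNA per cell cannot be told apart.

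The PRC2 and PRC1 genes moved in both directions with CpG on both alleles, and most of them rose. Ezh1, Ezh2, Eed, Suz12, Rbbp7 and Pcgf5 passed the test on both alleles, all 6 in the same direction on each. Rbbp4, Ring1 and Bmi1 passed on 1 allele and Rnf2 on neither. On the 129 allele 8 of 10 members passed an adjusted p of 0.05 in edgeR, where 55.2% of 10581 tested genes did, and 6 of the 8 were higher with CpG, where 28.2% of all genes were called higher. On the Cast allele 7 of 10 passed against 62.2% of 10365 genes, 6 of them higher against 30.7%. Summed over both alleles 9 of 10 passed against 68.7% of 10343 genes, 7 of them higher against 34.2% and 2 lower against 34.4%. The samples of the 2 groups did not overlap for 8 members on 129 (64.8% of all genes), 8 on Cast (68.5%) and 9 summed (73.8%). A change was common among all genes, so the number of members called does not set the complexes apart. The median log2 fold change of the 10 members was 0.83 on 129 and 0.95 on Cast, and that of all tested genes was -0.01 and -0.04.

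Within PRC2 the 2 catalytic subunits changed in opposite directions. Ezh2, Suz12 and Eed rose on both alleles, and Ezh1 fell on both. Their promoter sequences are shown, since these 4 genes encode the catalytic core of PRC2 and were called on both alleles. They are the 250 bases before the most upstream RefSeq start on GRCm38.p6, written 5′ to 3′ on the strand of the gene. Capitals mark the letters of 3 motifs known from cell cycle promoters, searched on both strands: CCAAT (the CCAAT box), TTTGAA (the CHR element) and the E2F letters TTTGGCGC, TTTCCCGC or TTTCGCGC, which do not overlap one another here.
Ezh2 promoter, chr6:47595031-47595280, - strand: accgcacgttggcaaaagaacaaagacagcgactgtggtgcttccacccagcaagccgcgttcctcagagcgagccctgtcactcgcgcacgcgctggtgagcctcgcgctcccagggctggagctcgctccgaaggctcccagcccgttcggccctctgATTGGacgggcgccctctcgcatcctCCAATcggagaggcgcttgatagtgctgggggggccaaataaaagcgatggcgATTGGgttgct
Ezh1 promoter, chr11:101226464-101226713, - strand: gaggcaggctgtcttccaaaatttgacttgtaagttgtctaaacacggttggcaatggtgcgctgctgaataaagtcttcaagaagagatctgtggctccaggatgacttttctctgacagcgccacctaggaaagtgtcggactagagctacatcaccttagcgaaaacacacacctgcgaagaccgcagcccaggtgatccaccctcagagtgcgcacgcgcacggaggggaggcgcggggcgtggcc
Suz12 promoter, chr11:79992856-79993105, + strand: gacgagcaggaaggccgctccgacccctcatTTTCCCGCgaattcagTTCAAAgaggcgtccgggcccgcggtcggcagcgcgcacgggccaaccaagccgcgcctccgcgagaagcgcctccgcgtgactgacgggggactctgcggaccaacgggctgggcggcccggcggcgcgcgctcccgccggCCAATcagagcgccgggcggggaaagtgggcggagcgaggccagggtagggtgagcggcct
Eed promoter, chr7:89980977-89981226, - strand: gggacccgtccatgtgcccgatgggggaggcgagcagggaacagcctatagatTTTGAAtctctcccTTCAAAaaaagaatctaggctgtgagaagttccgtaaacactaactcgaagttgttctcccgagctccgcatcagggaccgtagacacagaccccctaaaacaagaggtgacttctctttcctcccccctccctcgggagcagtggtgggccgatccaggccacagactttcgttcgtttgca
The Ezh2 window held CCAAT 3 times, at 90, 64 and 11 bases before the start (counted to the first base of each match), and the Ezh1 window held none of the letters. Suz12 had all 3 kinds, and Eed had TTTGAA on both strands. Over the 10 members, 5 windows held CCAAT (Ezh2, Suz12, Rbbp4, Rbbp7 and Pcgf5), 2 held TTTGAA and 1 an E2F match. Among 27025 promoters of the same length the shares were 34.5%, 16.3% and 1.59%. These matches describe letters of the reference strain, and binding was not measured.

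Ezh2 on the 129 allele stood at 35.5, 30.9 and 42.3 CPM (reads per 1000000 gene reads, scaled by TMM) in naive replicates 1, 2 and 3 and at 300.3, 385 and 323 CPM in the CpG replicates. Its Cast levels were 19.9, 22.2 and 32.5 CPM in naive and 185, 208 and 162 CPM in CpG samples. Every CpG sample lay above every naive sample on both alleles, 9.28-fold by the means on 129 and 7.44-fold on Cast. The log2 fold changes were 3.21 (SE 0.17, edgeR adjusted p = 1.65e-05) and 2.90 (SE 0.20, edgeR adjusted p = 3.16e-06). Over both alleles summed it was 3.12 (SE 0.16), the largest rise among the 10 members.

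Ezh1 moved the other way. On the 129 allele it had 76.5, 114 and 88.6 CPM in the naive samples and 17.5, 27.8 and 24.6 CPM with CpG. Its Cast values were 56.2, 78.2 and 68.8 CPM and then 11.3, 14.1 and 13.8 CPM. The groups stayed far apart on both alleles, and Ezh1 was 3.997-fold lower on 129 and 5.18-fold lower on Cast. The log2 fold changes were -1.997 (SE 0.23, edgeR adjusted p = 3.01e-04) and -2.37 (SE 0.19, edgeR adjusted p = 8.09e-06).

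**Figure D1:**
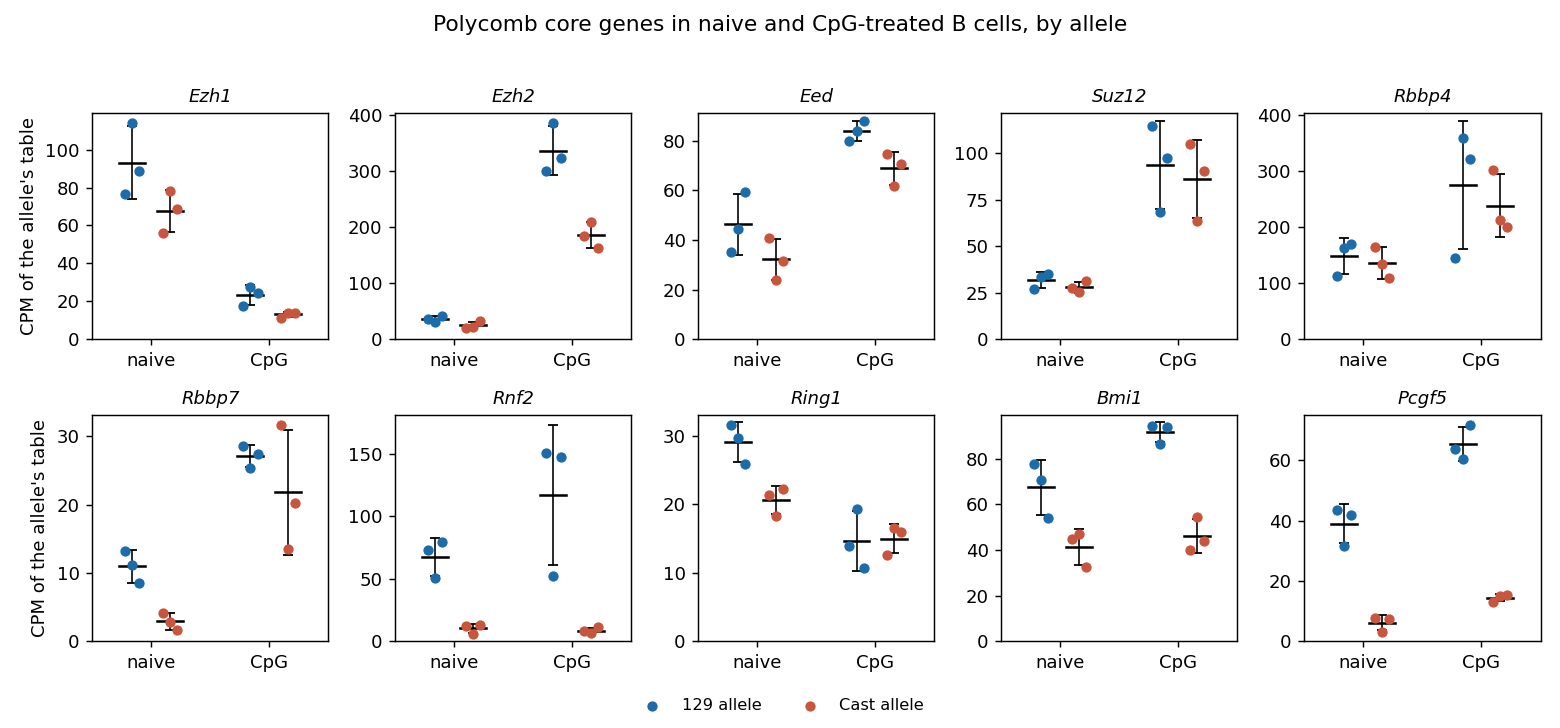
Level of each Polycomb core gene in CPM of the allele's own tables, for the 3 naive and 3 CpG samples. Points are samples, black lines the mean and its SD, and each panel has its own scale starting at 0. Ezh2 rises and Ezh1 falls on both alleles, and CpG replicate 2 of Rnf2 and CpG replicate 1 of Rbbp4 lie apart from their group on the 129 allele.

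Suz12, the scaffold, had 26.9, 33.4 and 34.9 CPM in the naive samples on the 129 allele and 115, 68.3 and 97.7 CPM with CpG. The Cast allele gave 27.3, 25.5 and 31.2 CPM and then 105, 63.5 and 90.3 CPM. The rise was 2.95-fold and 3.08-fold by the means, with CpG replicate 2 the lowest of its group on both alleles but still above every naive sample. The log2 fold changes were 1.56 (SE 0.22, edgeR adjusted p = 8.08e-04) on 129 and 1.62 (SE 0.21, edgeR adjusted p = 1.19e-04) on Cast.

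Eed, the subunit that reads the methyl mark, rose from 46.3 ± 12.2 to 84.0 ± 4.02 CPM on the 129 allele and from 32.2 ± 8.41 to 68.9 ± 6.64 CPM on the Cast allele (SD, n = 3). The groups did not overlap on either. The log2 fold changes were 0.86 (SE 0.20, edgeR adjusted p = 0.00816) and 1.101 (SE 0.20, edgeR adjusted p = 0.00114). Without both samples of replicate 2 the 129 value was 0.81 (edgeR adjusted p = 0.0640).

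Rbbp4, the autosomal histone-binding subunit, varied between replicates on each allele. On the 129 allele it had 113, 163 and 171 CPM in the naive and 146, 360 and 323 CPM in the CpG samples, so CpG replicate 1 lay inside the naive range. On the Cast allele it had 165, 134 and 109 CPM and then 303, 213 and 200.1 CPM, with CpG replicate 1 the highest. Summed over both alleles the samples lined up, at 168, 177 and 164 CPM in naive and 281, 342 and 314 CPM in CpG samples. The summed log2 fold change was 0.88 (SE 0.10, edgeR adjusted p = 5.35e-05). On Cast alone it was 0.81 (SE 0.20, edgeR adjusted p = 0.00642), and on 129 alone 0.89 (SE 0.36, edgeR adjusted p = 0.0748). The 129 change passed with the replicate block (0.82, SE 0.14, edgeR adjusted p = 1.76e-04, in a fit that called 65.1% of all genes), without CpG replicate 1 (1.21, edgeR adjusted p = 0.00376) and in DESeq2 (adjusted p = 0.0267). On Cast it did not pass without both samples of replicate 2 (0.85, edgeR adjusted p = 0.0569).

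Rbbp7, the X-linked relative of Rbbp4, rose on both X chromosomes. On the active 129 X it had 13.2, 11.1 and 8.46 CPM in naive and 28.6, 25.3 and 27.4 CPM in CpG samples. On the inactive Cast X it had 4.12, 2.87 and 1.71 CPM and then 31.7, 13.5 and 20.3 CPM. No CpG sample reached down to a naive one on either chromosome, but the naive Cast level rested on 11, 8 and 4 reads. The log2 fold changes were 1.30 (SE 0.24, edgeR adjusted p = 0.00291) on 129 and 2.88 (SE 0.44, edgeR adjusted p = 3.57e-04) on Cast. Whether they differ is tested below as a change of the allele ratio.

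The PRC1 genes moved less than Ezh1 and Ezh2, and 1 of the 4, Pcgf5, was called on both alleles. Pcgf5, which forms a variant PRC1 without CBX proteins, had 43.6, 31.8 and 41.8 CPM on the 129 allele in naive and 63.9, 60.5 and 71.7 CPM in CpG samples. The Cast allele gave 7.87, 3.23 and 7.26 CPM and then 13.2, 15.0 and 15.3 CPM. All CpG samples were above all naive samples, and the log2 fold changes were 0.74 (SE 0.17, edgeR adjusted p = 0.00829) and 1.25 (SE 0.35, edgeR adjusted p = 0.0114). Leaving out both samples of 1 replicate number ended the call on 129 for replicate 3 (0.73, edgeR adjusted p = 0.0541) and on Cast for replicate 2 (0.89, edgeR adjusted p = 0.0504).

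Ring1, 1 of the 2 ligases, fell on the 129 allele, from 31.6, 29.7 and 25.9 CPM to 13.9, 19.4 and 10.7 CPM. Its Cast levels were 21.4, 18.3 and 22.2 CPM and then 12.5, 16.6 and 15.9 CPM. The groups did not overlap on either allele. The 129 log2 fold change was -0.99 (SE 0.27, edgeR adjusted p = 0.0158), the Cast value was -0.46 (SE 0.22, edgeR adjusted p = 0.105), and the summed value was -0.69 (SE 0.18, edgeR adjusted p = 0.00671). The 129 call ended without naive replicate 1 (-0.92, edgeR adjusted p = 0.0515) or CpG replicate 1 (-0.94, edgeR adjusted p = 0.0518). Without both samples of replicate 1 or of replicate 3, neither the 129 change (edgeR adjusted p = 0.107 and 0.0656) nor the summed change (edgeR adjusted p = 0.0822 and 0.0564) passed.

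Rnf2, the other ligase, had 73.0, 50.3 and 79.2 CPM on the 129 allele in naive and 151, 52.4 and 148 CPM in CpG samples. CpG replicate 2 thus lay at the naive level while the other two were about as high as each other. On the Cast allele it had 12.0, 6.10 and 12.8 CPM and then 8.15, 6.44 and 11.2 CPM, with overlapping groups. The log2 fold change was 0.79 on 129 (SE 0.42, edgeR adjusted p = 0.155), -0.25 on Cast (SE 0.37, edgeR adjusted p = 0.575) and 0.71 summed (SE 0.39, edgeR adjusted p = 0.143). The outcome depended on how replicate 2, the lowest of both groups on both alleles, was handled. Without CpG replicate 2 the values were 1.14 on 129 (edgeR adjusted p = 0.00496) and 1.04 summed (edgeR adjusted p = 0.00139). In the fits with the replicate block they were 0.70 (SE 0.18, edgeR adjusted p = 0.00415) and 0.63 (SE 0.17, edgeR adjusted p = 0.00606), and those fits called 65.1% and 70.3% of all genes.

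Bmi1, the PCGF subunit of canonical PRC1, had 67.5 ± 12.0 and 91.7 ± 4.46 CPM on the 129 allele and 41.5 ± 7.87 and 46.0 ± 7.47 CPM on the Cast allele (SD, n = 3). The 129 change of 0.44 in log2 (SE 0.16, edgeR adjusted p = 0.0492) and the summed one of 0.36 (SE 0.14, edgeR adjusted p = 0.0453) lay at the threshold, and the Cast value was 0.15 (SE 0.20, edgeR adjusted p = 0.537). The 129 call ended in DESeq2 (adjusted p = 0.0921), under other scaling factors (edgeR adjusted p = 0.0577 and 0.0591) and without any 1 of naive replicates 2 and 3 or CpG replicates 1, 2 and 3 (edgeR adjusted p = 0.0713 to 0.119). The summed call ended in DESeq2 (adjusted p = 0.0966), under the other scaling factors (edgeR adjusted p = 0.0612 and 0.0509) and without naive replicate 3 or CpG replicate 1, 2 or 3 (edgeR adjusted p = 0.0799 to 0.129). Neither call held without both samples of any 1 replicate number (edgeR adjusted p = 0.0611 to 0.241). A processed copy of Bmi1 on the X chromosome, Gm5946, matches it over 2658 bases at 97.0% identity in GENCODE and is not in the strain tables used here, so reads could be shared between them.

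**Figure D2:**
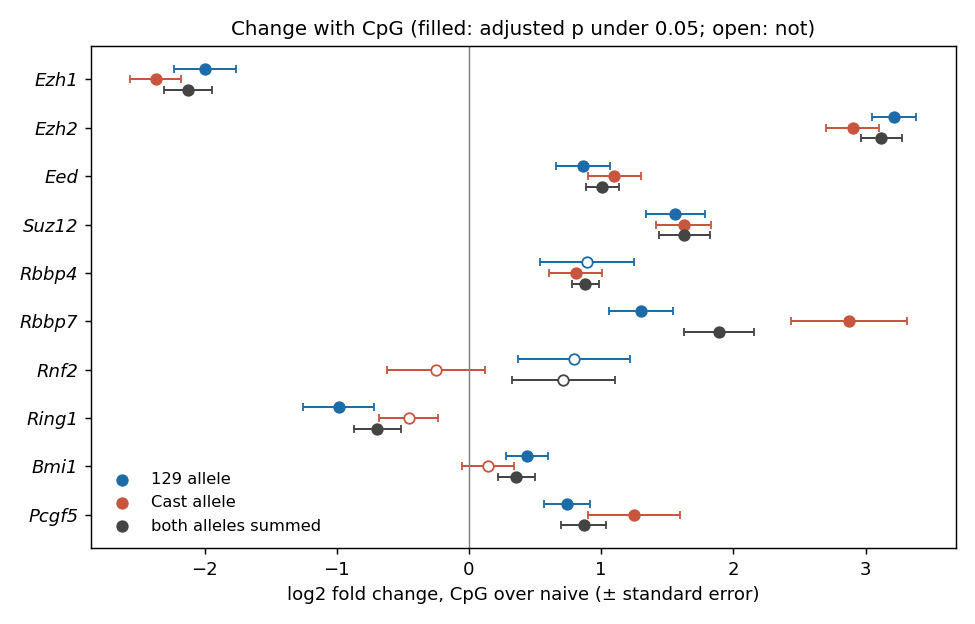
Log2 fold change of CpG over naive for each Polycomb core gene on the 129 allele, the Cast allele and both summed, with its standard error (3 against 3 samples, edgeR). Filled points passed an adjusted p of 0.05. Ezh2 lies near 3 and Ezh1 near -2 on both alleles, and the alleles of Rbbp7 lie farthest apart, at 1.30 and 2.88.

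The genes whose profile over the 6 samples lay nearest to that of Ezh2, out of 6726 with a mean of at least 100 reads, were Spc25, Smc2, Hist1h4k, Mad2l1 and Dctpp1. Nearness was the root mean square difference of the centred log2 CPM, which was 0.11 for Spc25 and 0.13 for Dctpp1. Spc25 had 25.7, 26.0 and 30.1 CPM in naive and 198, 252 and 207 CPM in CpG samples, summed over both alleles.

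Among the other Polycomb genes, 56 were listed, with 44 tested over both alleles summed. Of these 18 rose and 12 fell, which is 68.2% called against 68.7% of all genes, with a median log2 fold change of 0.10. The PRC2 accessory genes split, as Phf19, a PCL protein that helps PRC2 bind chromatin, rose 8.27-fold while its relative Phf1 fell 14.97-fold. Phf19 went from 20.6 ± 3.21 to 171 ± 18.1 CPM and Phf1 from 122 ± 8.94 to 8.11 ± 1.495 CPM (SD, n = 3, both alleles summed). Their log2 fold changes were 3.05 (SE 0.15, edgeR adjusted p = 2.75e-07) and -3.90 (SE 0.15, edgeR adjusted p = 1.24e-07). Aebp2, a cofactor of a different PRC2 form, rose by 0.56 and Lcor fell by 1.30 in log2 fold change, and both passed on each allele. Jarid2 fell on the 129 allele (-2.21, SE 0.14, edgeR adjusted p = 2.57e-05) and did not pass on Cast (-0.23, SE 0.39, edgeR adjusted p = 0.617). Its Cast levels were 140, 145 and 95.2 CPM in naive and 187, 54.9 and 81.8 CPM in CpG replicates 1, 2 and 3. Only CpG replicate 1 thus lay above the naive samples, and a call on 1 allele does not show that the alleles differ. Mtf2, tested on 129 only, gave 0.58 (SE 0.21, edgeR adjusted p = 0.0502). Summed over both alleles, 2 of 6 tested accessory genes rose and 2 fell, against 34.2% and 34.4% of all genes.

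The CBX, PHC and SCM subunits, which make up canonical PRC1, had 5 of 11 tested genes lower and 2 higher, where 34.4% and 34.2% of all genes were. Scml4 fell 21.5-fold, from 265 ± 6.02 to 12.3 ± 6.42 CPM, Cbx7 5.48-fold and Cbx8 2.08-fold (SD, n = 3). CBX7 and CBX8 bind the methyl mark that PRC2 places. Summed over both alleles, naive replicate 1 of Cbx7, at 329 CPM, lay below the other naive samples (834 and 751 CPM) and above the CpG samples (67.1 to 147 CPM). On the 129 allele it was the highest naive sample (245 against 106 and 82.7 CPM), and on Cast the lowest (302 against 1210 and 1102 CPM). CpG replicate 1 of Cbx7 had 52.1 against 15.8 and 15.9 CPM on 129, and 57.0 against 194 and 208 CPM on Cast. X-linked Scml2 rose on the 129 allele by 2.23 (edgeR adjusted p = 0.0163), but from 1 to 7 reads per naive sample. Among the other PCGF genes, 2 of 3 tested rose, against 34.2% of all genes. Of these Pcgf6 passed on each allele (1.89-fold, 71.9 ± 6.40 to 136 ± 8.55 CPM).

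Among the partners of variant PRC1, 8 of 14 tested genes were higher and 1 lower, where 34.2% and 34.4% of all genes were, with a median of 0.79. Tfdp1, the partner of E2F factors, rose 16.4-fold, from 51.6 ± 8.98 to 844 ± 85.8 CPM. E2f6, a repressive E2F factor, rose 4.41-fold and Cbx3, a heterochromatin protein, 3.68-fold, while Fbrsl1 fell 2.71-fold, all called on each allele. In the deubiquitinase complex that removes the PRC1 mark, 4 of 9 tested genes rose and 3 fell, against 34.2% and 34.4% of all genes. Foxk2 rose 2.34-fold and Asxl1 1.67-fold summed over both alleles, and both passed on each, and X-linked Hcfc1 rose on the 129 allele by 0.57 (edgeR adjusted p = 0.0121). Foxk1 fell 2.73-fold and Mbd6 3.01-fold. The demethylase gene Kdm6b, whose enzyme removes the PRC2 mark, fell 5.56-fold, from 26.0 ± 3.03 to 4.66 ± 0.671 CPM (SD, n = 3). Kdm6a, the other demethylase gene listed, was tested on the 129 allele only and did not pass (log2 fold change -0.24, SE 0.098, edgeR adjusted p = 0.0756). On that allele Kdm6a had 267 ± 4.08 and 227 ± 12.5 CPM, and Kdm6b 22.3 ± 0.727 and 2.94 ± 1.85 CPM.

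RBBP4 and RBBP7 also serve the CAF-1, NuRD and SIN3 complexes and the histone acetyltransferase HAT1. Of 18 tested genes of these complexes 10 rose and 3 fell, against 34.2% and 34.4% of all genes, with a median of 0.59. Chaf1a and Chaf1b, the other subunits of the chromatin assembly factor CAF-1, rose 23.6-fold (6.96 ± 1.52 to 166 ± 11.7 CPM) and 11.3-fold (33.1 ± 2.64 to 373 ± 33.8 CPM). Hat1 rose 6.37-fold, from 32.1 ± 4.79 to 204 ± 6.94 CPM (SD, n = 3, both alleles summed). The NuRD genes Mta3, Gatad2b and Chd3 fell, by 1.93, 0.41 and 0.35 in log2 fold change. All 6 passed on each allele (edgeR adjusted p of the sum 9.01e-08 to 0.0181). As named genes, these and the ones above, apart from Jarid2, Mtf2 and Kdm6a, were chosen by a rule on size and call. The genes so chosen are thus the largest of their lists.

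The question of whether CpG moved the 2 alleles apart was tested as a change of the Cast to 129 ratio. None of the 10 members passed, and 95 of all 10364 tested genes (0.917%) did in edgeR. Among the members, Rbbp7 and Rnf2 had an unadjusted p under 0.05 in edgeR, where 11.4% of all genes did. When a term for the replicate number was added, 2 members passed, Rbbp7 and Rnf2, where 7.52% of all genes did, and DESeq2 without the block called none of the members. The count of all genes depended on the samples, since it fell from 95 to between 14 and 26 when any 1 of the 6 samples was left out. A ratio of the Cast and 129 reads in 1 sample does not depend on the size of the library, but it can carry differences between the strain annotations and in how many reads tell the strains apart.

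Of the 9 autosomal members, all but Rnf2 and Pcgf5 had Cast shares of 36.6% to 54.6% by group mean. All autosomal reads had 52.7% ± 0.793 in naive and 52.9% ± 0.812 in CpG samples (SD, n = 3). Bmi1 (41.4% and 36.6%), Ezh2 (43.8% and 38.9%), Ezh1 (45.7% and 39.7%) and Eed (44.6% and 48.6%) lay below this in both groups by mean. Naive replicate 1 of Eed, at 57.1%, lay above it. Ring1 (45.0% and 54.6%) lay below it in naive and above it in CpG samples. Suz12 (50.5% and 51.6%) and Rbbp4 (51.3% and 51.0%) lay near it by group mean. Rnf2 and Pcgf5 lay far below in every sample. The Cast share of Rnf2 was 15.8%, 12.2% and 15.9% in naive replicates and 5.79%, 12.4% and 8.19% in CpG replicates, on 139 to 464 reads. That of Pcgf5 was 17.1%, 10.5% and 16.8% and then 19.0%, 22.2% and 20.1%, on 86 to 259 reads. The 20 genes beside each of them had median shares of 48.2% to 56.0% in every sample, so the low share was not found along these stretches. Whether it comes from the strain annotations was not tested.

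The Rnf2 ratio fell with CpG by 0.92 in log2 (SE 0.32, edgeR adjusted p = 0.316, and with the replicate block -0.99, SE 0.29, edgeR adjusted p = 0.0212). By replicate number its Cast share fell by 9.97 points in replicate 1, fell by 7.68 points in replicate 3 and rose by 0.123 points in replicate 2. The shares of the 2 groups overlapped. The groups did not overlap for Ezh1, with Cast shares of 45.7% ± 1.73 in naive and 39.7% ± 2.78 in CpG samples, nor for Pcgf5, with 14.8% ± 3.75 and 20.4% ± 1.61 (SD, n = 3). For both the two-sided exact permutation p was 0.1, the smallest that 3 against 3 samples allow, and 0.333 when adjusted over the 10 members. Of all genes that reached 20 reads in each of the 6 samples, 19.9% had shares that did not overlap, against 3 of the 10 members (Ezh1, Pcgf5 and Rbbp7). For the rest the group means differed by at most 9.58 points, for Ring1, and by -0.338 points for Rbbp4, and the groups overlapped.

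**Figure D3:**
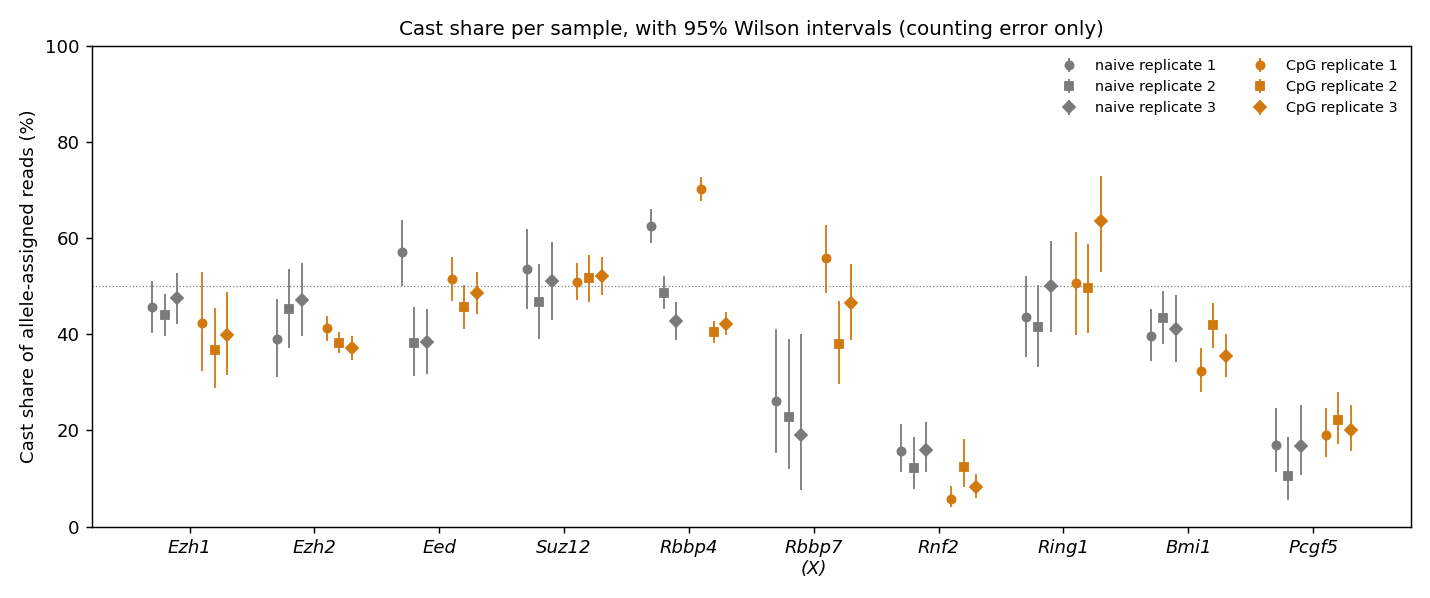
Cast share of the allele-assigned reads of each Polycomb core gene per sample, in percent, with 95% Wilson intervals that cover counting error only. Marker shapes are replicate numbers, and grey and orange are naive and CpG. Rbbp7 lies at 19.0% to 26.2% in naive and 37.9% to 55.8% in CpG samples, and both replicate 1 samples of Rbbp4 lie above 62%.

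The allele share of Rbbp4 set both replicate 1 samples apart from the other 4, while the groups overlapped. Its Cast share was 62.6% (95% Wilson interval 58.9 to 66.1) in naive and 70.3% (67.8 to 72.7) in CpG replicate 1, but 48.7% and 42.7% in the other naive and 40.5% and 42.2% in the other CpG samples. The group means, 51.3% ± 10.2 and 51.0% ± 16.7 (SD, n = 3), thus differed by far less than their spread. Of the 20 genes nearest to Rbbp4 on chromosome 4, 13 also had both replicate 1 samples above the other 4 samples, where 7.39% of 7264 autosomal genes did. The median share of these neighbours was 59.4% and 60.5% in the replicate 1 samples and 48.3% to 49.3% in the others. Around Rnf2 on chromosome 1, 8 of 20 neighbours had both replicate 2 samples highest, where 7.43% of autosomal genes did. Around the other 8 members, including X-linked Rbbp7, at most 4 of 20 neighbours followed any 1 replicate number in this way.

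**Figure D4:**
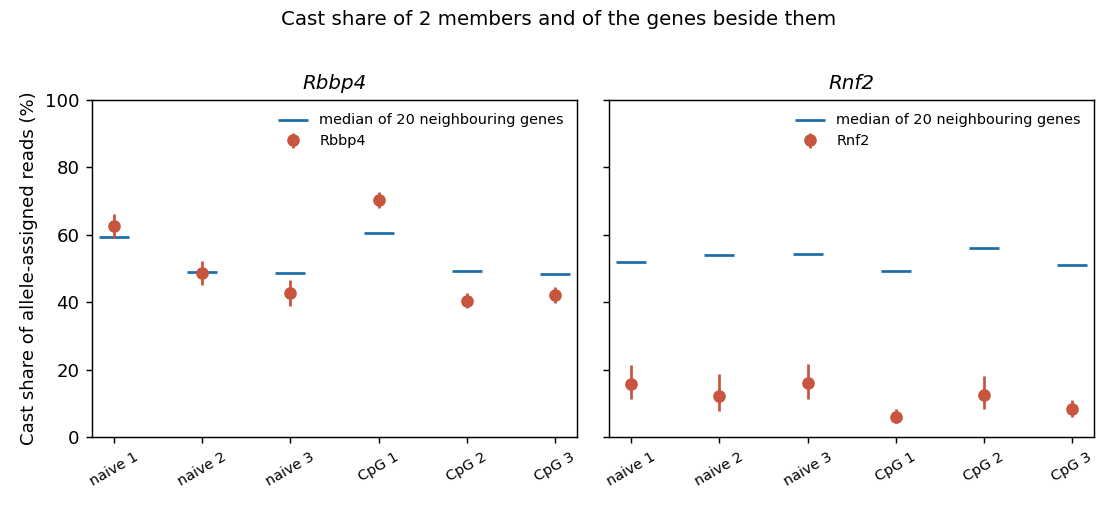
Cast share in percent of Rbbp4 and Rnf2 per sample (points, with 95% Wilson intervals) and the median share of the 20 genes nearest to each (bars). Rbbp4 and its neighbours are both highest in the replicate 1 samples, and Rnf2 lies far below its neighbours in all 6 samples.

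Rbbp7 had the largest change of share among the members. Of its reads, 11 of 42, 8 of 35 and 4 of 21 were from the inactive Cast X chromosome in naive replicates 1, 2 and 3, which is 26.2% (95% Wilson interval 15.3 to 41.1), 22.9% (12.1 to 39.0) and 19.0% (7.67 to 40.0). In the CpG replicates 101 of 181, 44 of 116 and 69 of 148 were, which is 55.8% (48.5 to 62.8), 37.9% (29.6 to 47.0) and 46.6% (38.8 to 54.6). The 2 groups did not overlap, although the intervals of single naive samples were wide and reached into the CpG range. The means were 22.7% ± 3.57 and 46.8% ± 8.94 (SD, n = 3), a difference of 24.1 points with an exact permutation p of 0.1, the smallest possible, and 0.333 adjusted over the 10 members. Paired by replicate number, the share rose by 29.6, 15.1 and 27.6 points.

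In the test of the ratio the Rbbp7 change was 1.54 in log2 (SE 0.40, unadjusted p = 0.00622, edgeR adjusted p = 0.170), so it did not pass over all genes. In the fit with the replicate block it was 1.57 (SE 0.45, edgeR adjusted p = 0.0141), where 12 of 275 X-linked genes (4.36%) passed. Without the block 2 of the 275 X-linked genes (0.727%) passed, and the Rbbp7 change ranked 33 by size and 6 by p among them. The authors' deposited table of group means gives Rbbp7 an inactive X level of 28.9 SRPM (reads scaled to the total of the strain's table) in naive and 221 in stimulated cells. In the same deposited table its active X level was 110 and 269 SRPM, and the ratio of inactive to active X was 0.262 and 0.823. These are the authors' means and carry no error.

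Set among the 200 X-linked genes that reached 20 reads in each sample, Xist left out, the Cast share of Rbbp7 ranked 8 from the top in naive and 2 in CpG samples, and its difference ranked 2. The median gene had 3.22% and 3.14%. All X-linked reads without Xist had 6.60% ± 1.02 and 9.23% ± 0.311 (SD, n = 3). The 20 genes beside Rbbp7 had median shares of 2.15% to 3.23% in every sample, so its high share was not found in its neighbours. The nearest in share over the 6 samples, out of 185 candidates, were 5530601H04Rik, Eif2s3x, Kdm5c, Rbmx2 and Jpx, at a root mean square difference of 8.65 to 14.5 points. Of these 5530601H04Rik went from 25.3% ± 9.10 to 43.8% ± 1.81, Eif2s3x from 27.7% ± 0.864 to 36.8% ± 0.937 and Kdm5c from 35.4% ± 2.14 to 37.5% ± 1.90 (SD, n = 3). Rbmx2 went from 29.9% ± 2.69 to 32.2% ± 4.08 and Jpx from 11.1% ± 3.93 to 31.5% ± 0.990 (SD, n = 3). Outside these genes, Tmem29 went from 6.03% to 31.4% by group mean, so a large rise was not particular to Rbbp7.

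**Figure D5:**
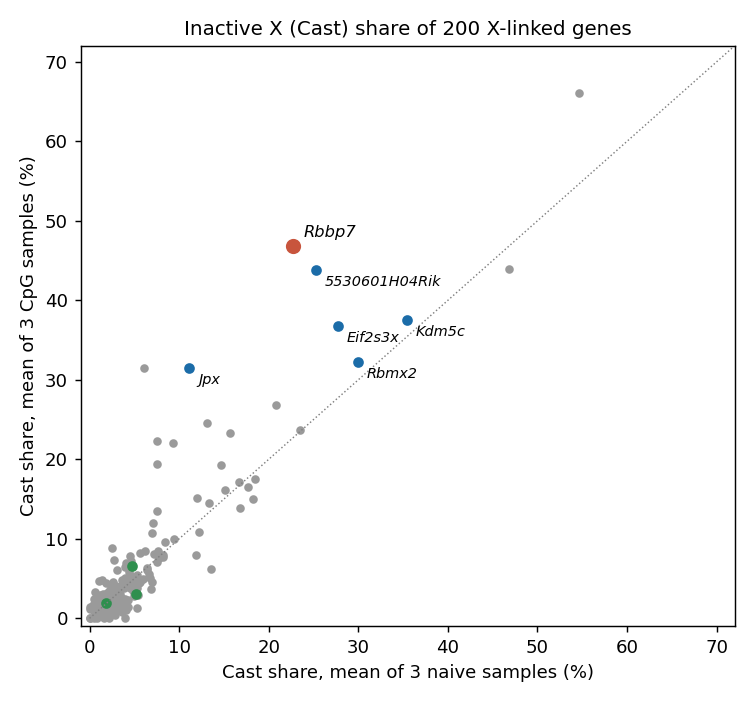
Cast (inactive X) share of 200 X-linked genes, mean of 3 naive samples against mean of 3 CpG samples, in percent. Red is Rbbp7, blue the 5 genes nearest to it, green the Polycomb genes Bcor, Ogt and Hcfc1, and the dotted line marks equal shares. Rbbp7 lies at 22.7% and 46.8%, well above the line, and most genes lie under 10%.

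Of the other X-linked Polycomb genes, Hcfc1, Ogt and Bcor had low Cast shares in all 6 samples. Hcfc1, a cofactor of the deubiquitinase complex, had Cast shares of 1.83% ± 0.527 in naive and 1.95% ± 0.581 in CpG samples (SD, n = 3, 421 to 1030 reads). Ogt, the sugar transferase of the same complex, had 4.79% ± 1.04 and 6.57% ± 0.261, with no overlap and a ratio change of 0.50 (SE 0.19, edgeR adjusted p = 0.359). Bcor, which binds the variant PRC1 with PCGF1, had 5.17% ± 0.790 and 3.01% ± 0.469, also without overlap, on 4 to 11 Cast reads per sample (-0.76, SE 0.27, edgeR adjusted p = 0.556). Of the X-linked genes that reached 20 reads in each sample, 13.9% had groups that did not overlap. Scml2 and Bcorl1 had at most 30 and 11 reads per sample, too few for a share.

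Reads of Rbbp7 could be shared with a processed copy on the X chromosome, Gm6382, which matches it over 942 bases at 97.1% identity in GENCODE and is not in the strain tables used here. The next gene, Txlng, overlaps it over 174 bases and is in the Cast table only, with 136 reads over the naive and 137 over the CpG samples. Rbbp4 matched Gm26722 over 799 bases and Sync over 521 bases at 100% identity, both also on chromosome 4 and both with 0 reads in either strain's tables. Eed matched E230029C05Rik over 261 bases at 100% identity, which is not in the strain tables. Suz12 matched Gm26563 over 180 bases at 100% identity, with 8 naive reads on 129 and 1 on Cast. No copy of at least 150 bases at 95% identity was found for Ezh1, Ezh2, Rnf2, Ring1 or Pcgf5.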

How the data were processed

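RNA of 6 samples was sequenced with a stranded total RNA kit, per the labels. The authors deposited 12 tables of read counts per gene, 1 for each sample and strain (129S1/SvImJ and CAST/EiJ gene identifiers), with no normalization per the file contents. The submitters' processing notes name STAR, featureCounts, Subread 2.0.0 and mm10, with no role given. How reads were given to a strain is not given in the sources used here. One further deposited table held the authors' group means, in RPKM and SRPM (a score: recomputed as counts scaled to the strain table's total, it matched with a median quotient of 1), and their ratio. No column of another series was used.

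Summary rows were left out of library sizes. Rows without a feature held 44.5% to 67.1% of aligned reads, more in naive than in CpG samples. In the 129 tables it was 62.6% to 67.1% in naive and 48.1% to 56.7% in CpG samples. In the Cast tables it was 57.9% to 62.1% and 44.5% to 52.3%. The part of this difference in the changes with CpG was not tested. Genes were matched between strains by name and chromosome. Changes were tested with edgeR 4.0.16 (quasi-likelihood test, robust, TMM, filterByExpr; R 4.3.3), adjusted by Benjamini-Hochberg over all tested genes, threshold 0.05. The Cast to 129 ratio was tested as a strain by group interaction with a term per sample, for genes with at least 10 reads in at least 3 samples. DESeq2 1.42.0 and other scalings, filters and samples were alternatives. The scripts were tested on simulated data. Shares have 95% Wilson intervals, which cover counting error only. Replicate pairs of 1 group differed by more than sampling noise.

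The titles number the replicates, and nothing else in the labels pairs them. Same-numbered samples deviated together: the correlation of their deviations was 0.45 to 0.61 in the 129 tables, 0.17 to 0.25 in the Cast tables and 0.65 to 0.74 for the allele ratio, so the number was used as a block in an alternative fit. The members and lists were chosen with earlier results of these data known. All 10 members are named. From other lists, genes called on both alleles in the same direction (X-linked: on 129) are named, at most the 3 largest per list and direction. Jarid2, Mtf2, Kdm6a, Cd3d and Cd3e are named outside this rule, to show members that it leaves out. Near-identical copies were searched with BLASTN 2.17.0 in GENCODE M21. Promoters are from RefSeq on GRCm38.p6, and all 10 members matched. Mtf2, Kdm6a, Csnk2a1, Hdac1, Skp1, Fbrs, Epop and Ezhip of the lists are not analysed here over both alleles. Nor are the proliferation genes Pcna, Mcm7 and Ccnb1 and the marker genes Cd22 and Mpo. Red cell, T cell and plasma cell lists were fixed as markers of other cells. Of the plasma cell genes 2 of 4 tested rose and 1 fell, against 34.2% and 34.4% of all genes.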

Additional observations from a re-analysis of the deposited data

How the results depend on the processing

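The number of genes called for the allele ratio moved most. It was 95, 779 with the replicate block, 14 to 26 when 1 sample was left out, and 15, 0 and 2 without both samples of replicate 1, 2 and 3, an alternative chosen after seeing the data. For the members it was 0, and 2 with the block. With DESeq2, each strain's own total or at least 30 reads in every sample it was 80 to 140, and in a fit of the 275 X-linked genes alone it was 0. When each strain table was scaled to its own total, 63.0% of the called genes moved toward Cast, against 52.6%. Left-out samples gave 4559 to 5477 calls in the 129 tables, 5303 to 6319 in the Cast tables and 5955 to 7105 summed, with 7 to 8 members called in the 129 tables, and 5 without both samples of replicate 3. The ratio change of Rbbp4, -0.02, was 0.033 with each strain's own total, -0.59 to 0.31 when 1 sample was left out, and 0.23 and 0.0080 without both samples of replicate 2 and 3. That of Suz12, 0.06, was -0.045 to 0.16 when 1 sample was left out and -0.046 without both samples of replicate 2. The cause was not tested.

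No member changed direction in the fits by allele or summed under any setting run. The Rbbp7 share difference was 19.6 to 28.6 points over the left-out samples, where an exact test cannot go below 0.2. With replicate block it was 24.1 points (exact sign-flip p = 0.25, the smallest possible). Besides the calls given with their blocked values above, the block changed no call of a member. With at least 30 reads in every sample Rbbp7 was not tested for the ratio. With X-linked genes alone its edgeR adjusted p was 0.659. Leaving the low-count filter off, or using DESeq2, moved the median log2 fold change of all genes in the 129 tables from -0.01 to -0.17 and -0.11. Depth limits the Rbbp7 share in naive cells, which rests on 21 to 42 reads per sample.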
